A study of Mus musculus with 18 samples.

Results

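Complement is a set of blood and tissue proteins that mark particles and cells for removal. The expression of 9 of its genes (C1qa, C1qb, C1qc, C1ra, C1s1, C4b, C3, Cfb and Serping1), of the 55469 gene IDs in the tables, was followed in mouse prostate. The 9 genes were chosen by their readout: the family was noticed because C3 was higher in one mutant line and C1s1 and Serping1 in the other at 30 weeks. The RNA of 18 male mice, on the strain written C56NL/6N in the methods, was taken from the lateral and ventral lobes of the prostate. Every mouse carried 1 copy of TRAMP, a transgene whose probasin (Pb) promoter drives the SV40 T antigens in prostatic epithelium, so no group here is free of the oncogene. The control group, WT-TRAMP, had wild-type Elac2 (ELAC2+/+), the gene of the nuclease that trims the 3′ ends of precursor tRNAs. In KO-TRAMP (ELAC2-/-) a Cre driven by the Pb promoter removed exon 8 of Elac2, which leaves the gene intact in cells that do not use that promoter, such as stroma and immune cells. In A537T-TRAMP (ELAC2A537T) both copies of Elac2 carried an alanine-to-threonine change, made by genome editing and present in every tissue. Mice were 10 or 30 weeks old, and each genotype and age was represented by 3 mice, and so 3 libraries.

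The classical pathway starts when C1q, assembled from the chains A, B and C, binds antibody or a damaged surface. C1q carries the proteases C1r and C1s: C1r activates C1s, which cleaves C4 and C2, and the fragments form an enzyme that cleaves C3, the protein on which all routes of complement meet. Factor B (Cfb) builds the corresponding enzyme of the alternative pathway, and Serping1, the C1 inhibitor, inactivates C1r and C1s. Blood complement is made largely in the liver, whereas in other tissues C1q comes mainly from macrophages and C1r, C1s, C3 and Serping1 come from several cell types, fibroblasts among them.

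All 9 genes are protein coding, and their positions are given on GRCm38. The C1q chains sit in a single cluster on the minus strand of chromosome 4, with C1qb at chr4:136880129-136886187, C1qc at chr4:136889804-136893065 and C1qa at chr4:136895917-136898803, together 18.7 kb. C1ra (chr6:124512405-124523443, plus strand) and C1s1 (chr6:124530345-124542359, minus strand) face each other across a gap of 6.9 kb. C4b (chr17:34728380-34743882) and Cfb (chr17:34856374-34862518) lie within 134 kb on the minus strand of chromosome 17, C3 lies elsewhere on that chromosome (chr17:57203970-57228136, minus strand), and Serping1 is on chromosome 2 (chr2:84765387-84775444, minus strand). The mouse carries near copies of 4 of these genes, and this limits their values. Of the 31-base words in the exons of C1ra, 56.9% also occur in C1rb, and the corresponding shares are 48.3% for C4b in C4a, 33.5% for C1s1 in C1s2 and 75.5% for Cfb in Gm20547, a readthrough gene model that overlaps it on the same strand. The reads of these pairs may have been split differently between libraries. C3, the C1q chains and Serping1 shared no such word with another gene. An antisense gene model, Gm16567, covers 18.4% of the exon bases of C1s1, but the quantification used strand.

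Promoter windows, from 250 bases before the annotated start to 50 bases after it, were held by RefSeq's table (GRCm38.p6) for 5 of the 9 genes. They are printed in lower case in the direction of the gene, with capitals for the matches to 6 short motifs searched on both strands. The motifs were GAS (TTCNNNGAA, read by STAT factors), ISRE (GAAA and GAAA with any 2 bases between, interferon response), NF-kappa-B (GGGA and TTCC with any 2 bases between), PU.1 (GAGGAA, the core read by a macrophage factor), C/EBP (TTGCNNAA, acute phase) and the TATA box (TATAAA). No pair of these matches overlapped in the windows. The C3 window is shown because C3 had the largest fold change of the 9 genes, those of C1qb and C1qc because they encode chains of the same protein, and those of C1ra and C1s1 because they encode partner proteases.
C3 (chr17:57228087-57228386, minus strand): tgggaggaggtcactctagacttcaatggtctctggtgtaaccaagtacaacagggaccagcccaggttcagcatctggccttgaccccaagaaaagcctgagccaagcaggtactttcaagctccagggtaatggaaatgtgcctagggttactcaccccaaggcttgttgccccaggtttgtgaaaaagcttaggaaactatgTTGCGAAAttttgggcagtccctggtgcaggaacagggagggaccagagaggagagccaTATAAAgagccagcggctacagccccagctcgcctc
C1qb (chr4:136886151-136886450, minus strand): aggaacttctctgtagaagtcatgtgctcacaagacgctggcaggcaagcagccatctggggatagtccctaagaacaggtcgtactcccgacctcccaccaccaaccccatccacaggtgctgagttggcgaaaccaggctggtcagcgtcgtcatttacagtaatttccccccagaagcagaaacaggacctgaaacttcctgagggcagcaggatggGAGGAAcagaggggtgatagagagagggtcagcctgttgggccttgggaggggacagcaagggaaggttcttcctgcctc
C1qc (chr4:136892865-136893164, minus strand): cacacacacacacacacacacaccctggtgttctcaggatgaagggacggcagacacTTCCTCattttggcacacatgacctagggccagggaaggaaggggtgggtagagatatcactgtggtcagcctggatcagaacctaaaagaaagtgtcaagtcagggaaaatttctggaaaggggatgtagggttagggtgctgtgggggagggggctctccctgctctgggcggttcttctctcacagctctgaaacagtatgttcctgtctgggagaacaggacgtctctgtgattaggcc
C1ra (chr6:124512371-124512670, plus strand): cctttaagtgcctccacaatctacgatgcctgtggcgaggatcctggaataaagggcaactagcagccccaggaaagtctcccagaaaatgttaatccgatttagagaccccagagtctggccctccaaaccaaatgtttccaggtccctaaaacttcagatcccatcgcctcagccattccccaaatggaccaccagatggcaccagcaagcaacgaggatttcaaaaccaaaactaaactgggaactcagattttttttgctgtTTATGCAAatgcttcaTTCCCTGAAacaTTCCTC
C1s1 (chr6:124542310-124542609, minus strand): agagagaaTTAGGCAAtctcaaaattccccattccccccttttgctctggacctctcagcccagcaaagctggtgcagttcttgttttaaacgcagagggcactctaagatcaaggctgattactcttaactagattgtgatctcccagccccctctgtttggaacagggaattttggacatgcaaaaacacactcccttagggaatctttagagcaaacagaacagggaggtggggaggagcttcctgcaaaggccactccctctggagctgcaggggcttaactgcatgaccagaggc

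The C/EBP letters occurred in the windows of C3, C1ra and C1s1, and in 10.8% of the 32851 windows of the same length in the table. The window of another C1s1 start, slightly further into the gene, held no match. The PU.1 core occurred in the windows of C1qb, C1qc and C1ra, and in 28.3% of all windows. The GAS letters were found in the C1ra window alone among these, against 8.3% of all windows. The TATA letters were found in the C3 window alone, against 13.6%, and lay 14 to 19 bases after the annotated start. None of the printed windows held the ISRE letters (3.44% of all windows) or the NF-kappa-B letters (1.47%). These matches describe the letters and are not evidence of binding.

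The libraries held 9380174 to 14830104 reads. Values are the authors' normalized counts, scaled separately in the 4 tables that each hold a mutant line beside WT-TRAMP of its age, and they are compared only within a table. Fold changes are mutant against WT-TRAMP on the log2(normalized count + 1) scale with the standard error (SE) from limma, which understates the change of low genes. Elac2 itself in the knockout was at 0.86 of WT-TRAMP at 10 weeks and 0.87 at 30 weeks, with overlapping groups. The corresponding values for A537T-TRAMP were 0.94 and 1.03. A gene-level count spans all exons, so it says little about the loss of exon 8. Some libraries stood apart in their cell markers. The summed level of 9 seminal vesicle genes was 21.0 to 54.0 normalized counts in WT-TRAMP at 10 weeks but 99.8 to 180184 in KO-TRAMP of that age, and in A537T-TRAMP, in its own table, it reached 1156800 in library 5. At 30 weeks it spanned 12.5 to 496917 within WT-TRAMP alone, although seminal vesicles were removed at dissection. Summed neuroendocrine markers reached 15558.5 and 9882.4 normalized counts in libraries 17 and 18 of KO-TRAMP, against 301 in library 16. The values that follow include every library unless a sentence names one as left out.

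At 30 weeks all 9 complement genes were higher in KO-TRAMP than in WT-TRAMP, and for each of them the lowest KO-TRAMP library exceeded the highest WT-TRAMP library. This contrast was used to choose the family, so its values are a description without a test. In bulk RNA more cells of a type cannot be told apart from more RNA per cell. Of the 16900 genes measured at a mean of at least 10 normalized counts, 10.8% were higher without overlap and 0.189% passed the limma threshold in that direction (adjusted p under 0.05). Of the 9 complement genes Serping1, C1qb, C1s1 and C4b (4 of 9) passed it, which is listed as a description of genes chosen on this contrast and from which nothing is read. The log2 fold changes ran from 0.92 (C1qa) to 2.00 (C3) with a median of 1.20, beside a median of 0.01 over all genes measured.

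**Figure D1:**
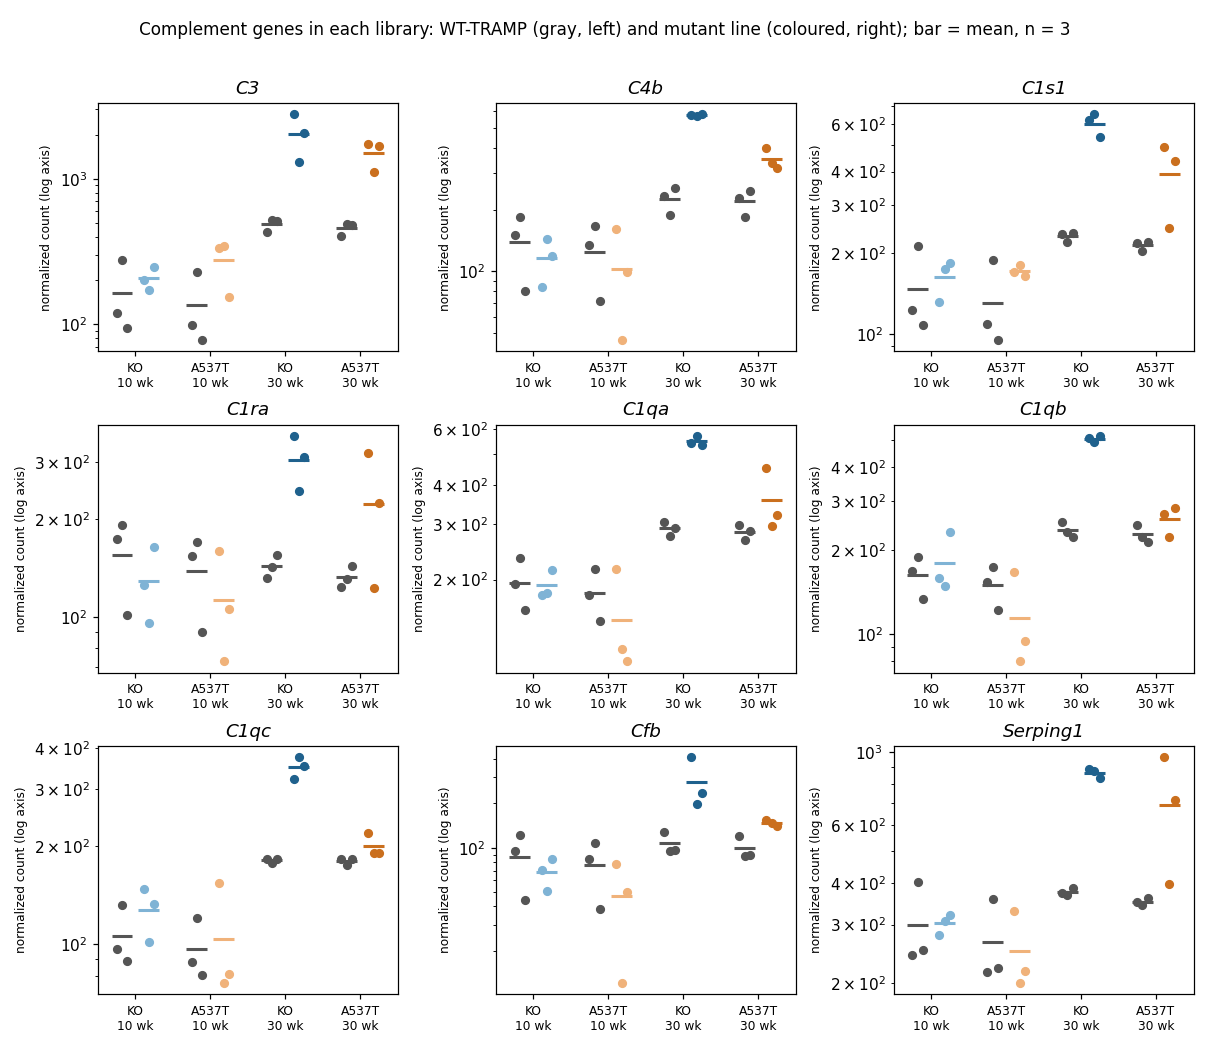
Normalized counts of the 9 complement genes in every library, with 1 panel per gene and a log vertical axis. In each pair along the horizontal axis the 3 WT-TRAMP libraries are gray, the 3 libraries of the mutant line are coloured and bars mark means. At 30 weeks the KO-TRAMP points lie above all WT-TRAMP points in all 9 panels, while at 10 weeks the groups overlap in every panel.

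The C1q chains, which recognise the target, had nearly equal fold changes. C1qa was at 304, 275 and 292 normalized counts in the WT-TRAMP libraries and at 544, 571 and 535 in the KO-TRAMP libraries, a log2 fold change of 0.92 (SE 0.11). C1qb was at 254, 233 and 223 against 506, 489.8 and 517 (1.09, SE 0.11). C1qc was at 182, 178 and 184 against 322, 375 and 352 (0.94, SE 0.12). The KO-TRAMP libraries were close to each other for each chain, at 1.89, 2.13 and 1.93 times the WT-TRAMP mean for C1qa, C1qb and C1qc.

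The proteases that C1q carries were also higher in each KO-TRAMP library. C1s1, which cleaves C4, was at 234, 219.8 and 236 normalized counts in WT-TRAMP and at 622, 652 and 536 in KO-TRAMP, a log2 fold change of 1.38 (SE 0.12). C1ra, which activates C1s, was at 132, 142 and 155 against 360.1, 244 and 309 (1.07, SE 0.18). Both genes have a near copy whose reads varied: C1rb was at 171, 17.3 and 108 in the WT-TRAMP libraries and at 5.14, 0 and 0 in the KO-TRAMP libraries. When the reads of C1ra and C1rb were added together, the log2 fold change fell to 0.37 (SE 0.28), and the sum averaged 242 ± 74.3 (SD, n = 3) in WT-TRAMP and 306 ± 60.6 in KO-TRAMP. When C1s1 was summed with C1s2 the log2 fold change was 1.20 (SE 0.16) and no longer passed the threshold. How much of the C1ra difference belongs to reads moved between the copies cannot be told apart here.

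C4b, the C4 gene on which the C1s protease acts, was at 232, 189 and 254 normalized counts in WT-TRAMP and at 574, 569 and 579.6 in KO-TRAMP. Its log2 fold change of 1.36 (SE 0.14) was accompanied by the narrowest spread of the 9 genes in KO-TRAMP (574 ± 5.18, SD, n = 3). Its near copy C4a was low, between 1.92 and 31.9 normalized counts, and the fold change of their sum was 1.34 (SE 0.16), which did not pass the threshold.

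C3, the central component, showed the largest difference. It was at 429, 520.2 and 513 normalized counts in WT-TRAMP and at 2769.7, 1299.6 and 2050 in KO-TRAMP, 4.19 times the WT-TRAMP mean (log2 fold change 2.00, SE 0.28). The lowest KO-TRAMP value, in library 17, was still 2.50 times the highest WT-TRAMP value. Cfb of the alternative pathway followed the same order of KO-TRAMP libraries, at 129, 95.01 and 96.9 against 411, 197 and 235 (1.33, SE 0.31), and in both genes library 16 was the highest of the KO-TRAMP libraries and library 17 the lowest. Gm20547, which overlaps Cfb, had no reads in any of these 6 libraries.

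Serping1, the inhibitor of C1r and C1s, was at 375, 369 and 386 normalized counts in WT-TRAMP and at 889, 875 and 833 in KO-TRAMP. Its log2 fold change of 1.20 had the smallest SE of the 9 genes (0.10). The inhibitor was thus higher in the same libraries as the proteases that it blocks, at 2.30 times the WT-TRAMP mean beside 2.62 for C1s1 and 2.13 for C1ra.

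The direction of these differences did not rest on a single library, but the calls did. The fold change of every one of the 9 genes stayed positive when each library was left out in turn, with C3 between 1.75 and 2.29. All 9 passed the threshold without library 16, when 18.1% of all genes passed, 1 (C3) passed without library 17, and none passed without library 10, 11, 12 or 18. By count models on the recovered reads, edgeR called C1s1 and Serping1 and DESeq2 called all 9, beside 0.0888% and 4.76% of all genes.

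**Figure D2:**
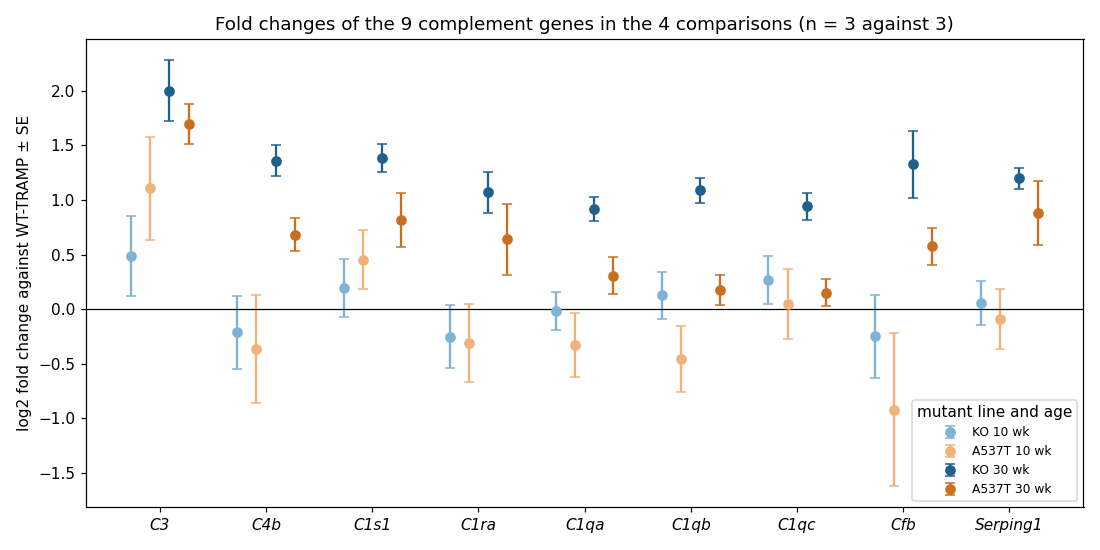
Log2 fold change of each complement gene against WT-TRAMP of the same age, with bars of 1 SE, for both mutant lines at both ages (3 libraries against 3). The KO-TRAMP points at 30 weeks lie between 0.92 and 2.00, and those of A537T-TRAMP at 30 weeks between 0.15 and 1.70.

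In A537T-TRAMP at 30 weeks the fold changes of all 9 genes were positive, with a median of 0.64 beside 0.00 over all genes, and 6 of the 9 were higher without overlap, where 7.36% of the 16261 genes measured were. Again the contrast was used to choose the family, so the calls are listed as a description and nothing is read from them. No complement gene passed the limma threshold, nor did any gene in the table (0%), while an unadjusted p under 0.05 was reached by 5 of the 9, as by 7.21% of the table. DESeq2 called C3 and edgeR none of the 9, beside 1.01% and 0% of all genes.

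C3 was again the gene with the largest difference, at 406, 489.6 and 482 normalized counts in WT-TRAMP and 1738.5, 1119.7 and 1681.6 in A537T-TRAMP (log2 fold change 1.70, SE 0.18). Its lowest A537T-TRAMP library was 2.29 times its highest WT-TRAMP library. C4b was at 227, 184 and 247 against 397, 337 and 319.97 (0.68, SE 0.15), and Cfb at 120.1, 87.9 and 89.6 against 153, 148 and 139.6 (0.58, SE 0.17). For these components every mutant library lay above every WT-TRAMP library.

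The C1 proteases and their inhibitor were uneven across the A537T-TRAMP libraries. Serping1 was at 352, 343 and 361 normalized counts in WT-TRAMP and at 963, 397 and 717 in A537T-TRAMP (0.88, SE 0.29). C1s1 was at 218, 204 and 219 against 492, 248 and 439 (0.82, SE 0.25), and C1ra at 123, 131 and 143 against 319.5, 123 and 223 (0.64, SE 0.32). Library 14 was the lowest of the A537T-TRAMP libraries for each of them, and without it the log2 fold changes were 1.24, 1.12 and 1.01. Library 13 was the highest for each, and without it they were 0.60, 0.63 and 0.32. In library 14 C1rb, the near copy of C1ra, was at 670.2 normalized counts, against 8.19 and 20.9 in libraries 13 and 15. C1s2 was at 155 in library 14, against 1.64 and 7.97 in libraries 13 and 15. The sum of C1ra and C1rb was 283, 146 and 243 normalized counts in WT-TRAMP and 328, 793 and 244 in A537T-TRAMP, so that library 14 was the highest on this measure (log2 fold change 0.88, SE 0.45). The sum of C1s1 and C1s2 was 494, 403 and 447 in A537T-TRAMP against 281, 207 and 246 (0.87, SE 0.15). The reason why library 14 differed was not tested.

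The C1q chains were close to WT-TRAMP in this line. C1qa was at 298, 267 and 285 normalized counts in WT-TRAMP and at 452, 297 and 321 in A537T-TRAMP (0.31, SE 0.17), and its fold change was 0.12 without library 13 and 0.43 without library 14. C1qb was at 247, 224 and 214 against 271, 223 and 284 (0.18, SE 0.14), and C1qc at 182, 176 and 182 against 219.6, 191 and 191 (0.15, SE 0.12). C1qa and C1qb overlapped between the groups, whereas C1qc did not, although its difference was the smallest of the 9. Both lines were compared with the same 3 WT-TRAMP mice and scaled in different tables, so the lines were not tested against each other. Side by side, the log2 fold changes, first for the knockout and then for the point mutation, were 2.00 and 1.70 for C3, 1.36 and 0.68 for C4b, 1.33 and 0.58 for Cfb, 1.20 and 0.88 for Serping1, and 1.09 and 0.18 for C1qb.

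At 10 weeks the comparison of KO-TRAMP with WT-TRAMP was not used to choose the genes, and here a test can be read. None of the 9 passed the threshold in limma, edgeR or DESeq2, which called 0.0129%, 0% and 0.524% of all 15451 genes measured. An unadjusted p under 0.05 in limma was reached by 0 of the 9 and by 6.64% of all genes. The adjusted p-values of the 9 from limma ran from 0.850 to 0.992. The fold changes were positive for 5 genes and negative for 4, from -0.25 (C1ra) to 0.48 (C3), with a median of 0.06 beside -0.01 over all genes. Every gene overlapped between the groups, where 12.0% of all genes did not.

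The values by library show how little separated these groups. C3 was at 119.8, 275 and 94.7 normalized counts in WT-TRAMP and at 201, 172 and 248 in KO-TRAMP (log2 fold change 0.48, SE 0.37, adjusted p = 0.850 by limma). C1s1 was at 122, 211 and 108 against 131, 174 and 183 (0.19, SE 0.27, adjusted p = 0.924 by limma). Serping1 was at 242, 402 and 251 against 279.6, 308 and 321 (0.06, SE 0.20, adjusted p = 0.969 by limma). In each of these genes WT-TRAMP library 2 held the highest value of all 6 libraries. With a WT-TRAMP library left out, the fold change of C3 ranged from 0.17 (without library 3) to 0.94 (without library 2), and that of C1s1 from 0.0026 to 0.48 without the same libraries. C1qa was at 193, 234 and 159.7 against 179, 181 and 215 (-0.02, SE 0.18, adjusted p = 0.992 by limma). With an SE between 0.18 and 0.38 for the 9 genes and at most 350 reads for any of them, a change of modest size was not detectable at this depth and number of mice.

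A537T-TRAMP at 10 weeks is described without a test, since C3 was higher there too and may have contributed to the choice. C3 was at 98.8, 227 and 77.8 normalized counts in WT-TRAMP and at 336, 345 and 152 in A537T-TRAMP, 2.07 times the WT-TRAMP mean with overlapping groups (log2 fold change 1.11, SE 0.47). Without library 5, which carried the most seminal vesicle RNA, it was 0.91 (SE 0.51). The remaining fold changes lay between -0.92 (Cfb) and 0.45 (C1s1), 3 of the 9 were positive, and the median was -0.31 beside -0.01 over all genes. Cfb was at 84.3, 107 and 38.4 against 78.1, 12.2 and 50.4, and its fold change was -0.16 without library 5, in which the gene had 11 reads. None of the 9 passed the threshold (0.00648% of 15438 genes did), an unadjusted p under 0.05 was reached by 1 of them, as by 7.89% of the table, and all 9 overlapped, where 13.4% of genes did not. Neither edgeR nor DESeq2 called any of the 9, beside 0% and 0.959% of all genes.

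The ratio of a pair of these genes within a library does not depend on the scaling of the library, and shows which genes kept step. Counts were not divided by gene length, so a ratio is read only against the same ratio in other libraries. C1qb over C1qa ranged from 0.601 to 1.08 over the 18 libraries and C1qc over C1qa from 0.487 to 0.830, with SDs of 0.19 on the log2 scale for each. In KO-TRAMP at 30 weeks C1qb over C1qa was at -0.10, -0.22 and -0.05 on that scale. These values lay above the -0.26, -0.24 and -0.38 of WT-TRAMP. C1qc over C1qa was higher without overlap in A537T-TRAMP at 10 weeks. Serping1 over C1s1 ranged from 1.11 to 2.31 (SD 0.26). In KO-TRAMP at 30 weeks it was at 0.51, 0.43 and 0.64 on the log2 scale, below the WT-TRAMP values of 0.68, 0.75 and 0.71. C1s1 over C1ra varied more (SD 0.49, from 0.709 to 2.66), and C3 varied most against its partners, with C3 over C4b from 0.798 to 7.29 and C3 over Cfb from 1.25 to 26.3. The highest value of the last of these came from library 5, where Cfb had 11 reads. C3 over Cfb was higher without overlap in each mutant line at each age, and C3 over C4b in A537T-TRAMP at each age. These differences were not tested.

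For KO-TRAMP at 10 weeks, where a test is open, 4 ratios were compared with WT-TRAMP by exact two-sided permutation over 3 libraries against 3, which cannot give a p below 0.1. The log2 differences were 0.14 for C1qb over C1qa (p = 0.3, exact), 0.28 for C1qc over C1qa (p = 0.2, exact), 0.45 for C1s1 over C1ra (p = 0.4, exact) and -0.13 for Serping1 over C1s1 (p = 0.3, exact). After adjustment over the 4 ratios each of these exact p-values was 0.4. These 4 ratios overlapped between the groups. The other two ratios were not tested: C3 over C4b overlapped, while C3 over Cfb was at 0.33, 1.17 and 1.09 on the log2 scale in WT-TRAMP and at 1.49, 1.74 and 1.56 in KO-TRAMP, higher without overlap.

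**Figure D3:**
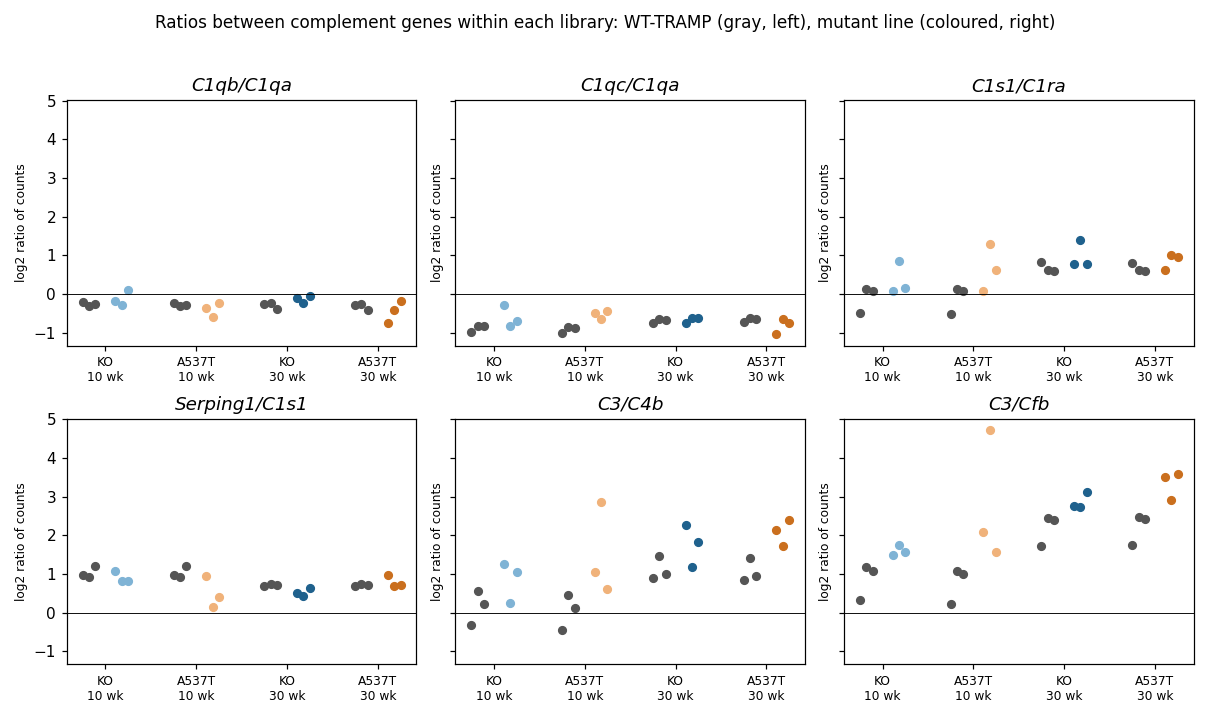
Log2 ratios between pairs of complement genes within each library, with WT-TRAMP in gray and the mutant line coloured. Over the 18 libraries C1qb over C1qa spans 0.601 to 1.08 as a plain ratio, whereas C3 over Cfb spreads from 1.25 to 26.3. At 30 weeks the KO-TRAMP points of C1qb over C1qa lie above those of WT-TRAMP.

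The levels across all 6 groups were set side by side as RPM, the reads of a gene scaled to the library's total. That total includes the reads of seminal vesicle genes, and the values carry no test. C3 was at 13.99 ± 8.28 RPM (SD, n = 3) in WT-TRAMP, 18.6 ± 3.65 in the knockout and 24.6 ± 9.51 in the point mutant at 10 weeks. At 30 weeks the same groups were at 42.0 ± 3.86, 183 ± 59.9 and 134 ± 31.2. The 3 groups at 10 weeks overlapped each other and lay below WT-TRAMP at 30 weeks, which lay below both mutant lines of that age, and these again overlapped. For C3, WT-TRAMP at 30 weeks was at 3.00 times its level at 10 weeks. The same ratio was 1.71 for C1qc, 1.63 for C4b, 1.57 for C1s1, 1.49 for C1qa and 1.46 for C1qb. It was 1.27 for Serping1, 1.24 for Cfb and 0.92 for C1ra. The C1ra ratio leaves out the reads of its near copy C1rb, which were not added in here. Serping1 was at 25.6 ± 7.54, 27.2 ± 1.84 and 22.5 ± 8.45 RPM in the same 3 groups at 10 weeks, and at 32.5 ± 0.95, 78.1 ± 2.46 and 61.2 ± 24.8 at 30 weeks. Per kilobase of exon, C1qa was the most abundant of the 9 at 30 weeks in WT-TRAMP, with 24.1 RPM per kilobase, followed by C1qb (18.8) and Serping1 (13.99). Cfb (3.27) and C4b (3.41) were the lowest. In KO-TRAMP at 30 weeks C3 reached 35.5 on this scale, beside 47.8 for C1qa, 41.9 for C1qb and 33.6 for Serping1.

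Markers of cells that make complement were also higher in KO-TRAMP at 30 weeks. The summed level of 12 macrophage markers was 1430.9 to 1623.7 normalized counts in WT-TRAMP and 3325.1 to 4381.9 in KO-TRAMP. All 12 were higher in KO-TRAMP, 10 of them without overlap, and 1 (Lyz2, the macrophage and neutrophil lysozyme) passed the threshold. Over all genes 10.8% were higher without overlap and 0.189% passed in that direction. None of the 12 was at 0. The summed C1q chains amounted to 45.6% to 48.0% of that sum in WT-TRAMP and to 31.3% to 43.2% in KO-TRAMP, a lower share in each KO-TRAMP library. The sum weighs each marker by its level, so these shares depend strongly on Lyz2. Its mean was 317 normalized counts in WT-TRAMP and 1275 in KO-TRAMP (log2 fold change 2.00, SE 0.11). The median log2 fold change of the 12 markers was 1.16. In A537T-TRAMP the macrophage sum was 1675.4 to 2732.3, against 1350.5 to 1566.0 in WT-TRAMP of that table, 9 of the 12 markers were higher, and the C1q chains were at 34.5% to 43.4% of the sum, below the 46.4% to 49.4% in WT-TRAMP. Here too Lyz2 weighed on the sum, with means of 295 in WT-TRAMP and 643 in A537T-TRAMP (1.08, SE 0.21). The median log2 fold change of the 12 markers was only 0.07. The share of the C1q difference that belongs to the number of macrophages was not tested.

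The summed fibroblast markers differed by more than the genes of the C1 proteases. The sum of 12 fibroblast markers was 4891.6 to 5554.5 normalized counts in WT-TRAMP and 19393.1 to 24860.5 in KO-TRAMP at 30 weeks. All 12 were higher, 11 of them without overlap (10.8% of all genes), 4 passed the threshold (0.189% of all genes) and none was at 0. C1s1, C1ra and Serping1 together were 13.996% to 14.95% of that sum in WT-TRAMP and 7.53% to 9.13% in KO-TRAMP. The sum is dominated by collagen genes, and Col3a1 alone averaged 1523 normalized counts in WT-TRAMP and 10165 in KO-TRAMP. The log2 fold changes of the 12 markers ran from 0.67 (Thy1) to 2.71 (Col3a1), with a median of 1.70. Shares of the sum thus depend strongly on the collagens. C3 was 8.12% to 10.6% of it in WT-TRAMP and 6.70% to 11.1% in KO-TRAMP, which overlap. In A537T-TRAMP the fibroblast sum was 7457.6 to 12367.9, beside 4648.0 to 5284.6 in WT-TRAMP. There C3 was at 14.1% to 17.1% of the sum, above the 8.06% to 10.5% in WT-TRAMP, whereas C1s1, C1ra and Serping1 were at 10.3% to 14.4%, overlapping the 13.7% to 14.6% in WT-TRAMP. Whether C3 was higher in A537T-TRAMP within fibroblasts or in another cell type was not tested.

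**Figure D4:**
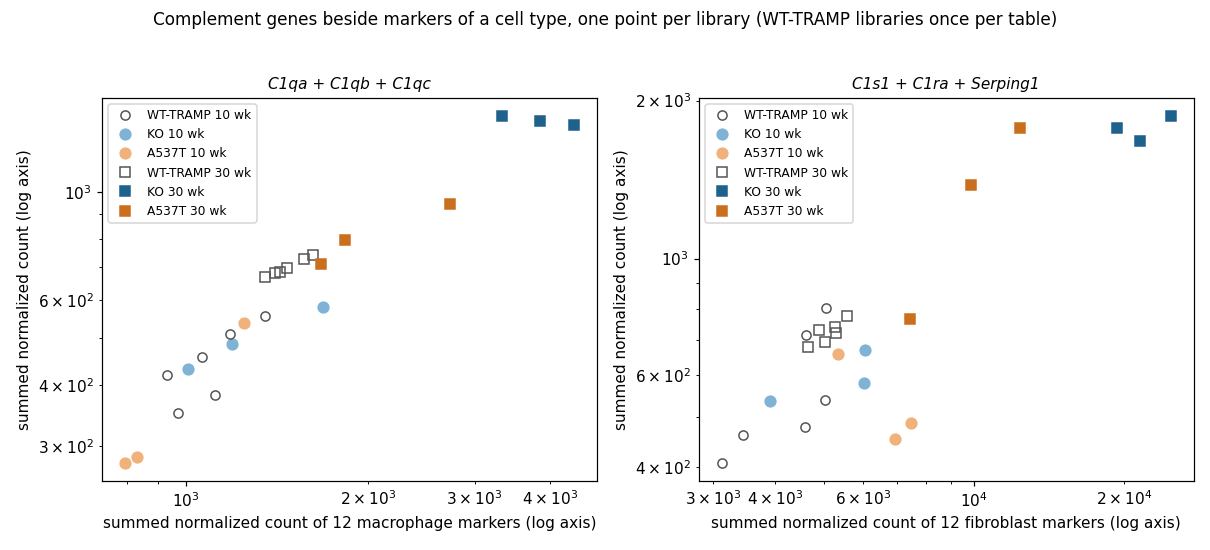
Summed normalized counts of complement genes against summed markers of a cell type on log axes, with 1 point per library and table. Left, the C1q chains and 12 macrophage markers; right, C1s1, C1ra and Serping1 and 12 fibroblast markers. The KO-TRAMP libraries at 30 weeks lie highest on both axes on the left, and on the right they have the highest marker sums, at 19393.1 to 24860.5.

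Other cell markers also differed in KO-TRAMP at 30 weeks. All 8 endothelial markers were higher, 5 without overlap (10.8% of all genes), with summed levels of 814.9 to 3562.0 normalized counts beside 479.8 to 669.2 in WT-TRAMP. All 6 measured adipose markers had negative fold changes, 5 lower without overlap, as were 9.48% of all genes, and 1 past the threshold, as were 0.0237% in that direction. Of 6 skeletal muscle markers 5 had positive fold changes, 3 were higher without overlap (beside the same 10.8%) and 2 passed the threshold (0.189% of all genes in that direction). The latter were the myosin genes Myh1 (2.68, SE 0.26) and Myh4 (6.03, SE 0.68), and the median over the 6 was 2.44. Summed luminal epithelial markers overlapped, at 30113.4 to 34660.4 in KO-TRAMP and 29179.1 to 37574.8 in WT-TRAMP. Hepatocyte markers were at 84.5 normalized counts or less in sum. All 16 interferon response genes had negative fold changes in KO-TRAMP at 30 weeks, with 10 lower without overlap (beside the same 9.48%) and none past the threshold, and the 9 measured genes of an NF-kappa-B and acute phase list were divided, with 4 positive and 5 negative. The part of these shifts in the complement values was not tested.

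The rest of the complement system was followed through lists of 23 other activating components, 18 other regulators and 8 receptors. At 30 weeks in KO-TRAMP, 13 of the other activating components had a mean of at least 10 normalized counts, 8 had positive fold changes, 6 were higher without overlap and 1 passed the threshold. Another 4 were lower without overlap, namely the near copies C1rb (-5.26, SE 1.14) and C1s2 (-3.86, SE 1.13), Cfd (-3.21, SE 1.45) and C8b (-0.76, SE 0.36), the last pair named here after their values were seen. Over all genes 10.8% were higher and 9.48% lower without overlap, and 0.189% passed the threshold as higher. The gene past the threshold was C7, a component of the pore-forming membrane attack complex, at 95.1, 119.96 and 111 normalized counts in WT-TRAMP and 559, 340.4 and 448 in KO-TRAMP (log2 fold change 2.02, SE 0.22). In A537T-TRAMP C7 was at 87.5, 109 and 101.3 against 607, 213 and 584 (2.08, SE 0.39), again without overlap. C2, which C1s cleaves beside C4, was at 94.0, 58.5 and 52.4 against 225, 94.7 and 111 in KO-TRAMP (1.00, SE 0.40). Mbl1 and Mbl2, recognition proteins of the lectin pathway made in liver and named here after their values were seen, had no reads in either 30-week table.

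Of the other regulators 9 were measured, 6 with positive fold changes in KO-TRAMP at 30 weeks and none past the threshold. Clu, a secreted chaperone that also inhibits the membrane attack complex, differed strongly between the KO-TRAMP libraries, at 39668.9 in library 16, 6065.7 in library 17 and 18896.9 in library 18, beside 9679.4 to 13903.1 in WT-TRAMP. Among the receptors 7 were measured, 6 had positive fold changes, 4 were higher without overlap (10.8% of all genes) and none passed. Itgam, a chain of the C3 receptor of macrophages and neutrophils, was at 70.5, 48.0 and 63.8 in WT-TRAMP and at 248, 90.4 and 149 in KO-TRAMP (1.30, SE 0.39). At 10 weeks no gene of these lists passed the threshold in KO-TRAMP, although Clu was higher without overlap, at 2973.7, 4116.8 and 5490.4 against 6099.4, 6938.4 and 7585.7 (0.75, SE 0.21, adjusted p = 0.71 by limma). Among the receptors at that age, Itgam was also higher without overlap (0.96, SE 0.33), whereas its partner chain Itgb2 (-0.62, SE 0.27) and Itgax (-1.18, SE 0.39), named after their values were seen, were lower without overlap.

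The genes whose pattern came closest to C1qa, C1s1 and C3 were found as those with the smallest mean absolute log2 difference over the 24 columns of the 4 tables (18 libraries, WT-TRAMP counted in both tables of an age), each gene centred on WT-TRAMP. Of 9597 genes compared, those nearest to C1qa were Mpeg1, a macrophage pore protein, with a mean difference of 0.15, then Nxt1, Papss1, Ifitm2 and Lgmn, up to 0.16. Those nearest to C1s1 were Col12a1 (0.17), Sparc, Crispld2, Vim and Col1a2 (0.21), several of which encode matrix proteins. C3 had no near neighbour, as Serpinh1 (0.38), Lyz2, Sparc, Svep1 and Col1a1 (0.44) were the closest. Among the 9 genes the smallest differences were those of C1qa with C1qb (0.11), C1qa with C1qc (0.14) and C1s1 with Serping1 (0.16), and the largest was that of C3 with Cfb (0.74). The columns share WT-TRAMP libraries and cell makeup, so these values describe the pattern and carry no test.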

How the data were processed

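Total RNA was sequenced on the NovaSeq platform from 18 mice. Per the submitters' processing notes and the methods, the authors used Trim Galore 0.4.1 with cutadapt 1.18 for trimming, aligned with STAR 2.7.3a to GRCm38.p6 masked for nuclear copies of mitochondrial sequence, quantified them with Salmon using strand, and normalized them with DESeq2 1.26. The deposited values are a signal, that is estimated counts divided by a size factor set within each of 4 tables of 6 libraries. Column headers carry a library number only. The 3 columns found in both tables of an age were taken as WT-TRAMP. Dividing by the value of 1 read gave a whole number for 100% of values in every library (tolerance 0.01 of a read), so reads were recovered. The WT-TRAMP values differed between tables (30.9% to 37.6% identical reads), hence the comparisons within tables. The authors' own comparisons (shrunken fold changes and s-values) were not used.

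Each line was compared with WT-TRAMP by limma 3.58.1 in R 4.3.3 (lmFit, eBayes with trend) on log2(normalized count + 1), for genes with a mean of at least 10, with Benjamini-Hochberg adjustment over all genes and a threshold of 0.05. The script was tested on simulated data. Gene IDs were matched to symbols for 55107 of 55469 rows. Named genes were the 9 members, Elac2, genes of 3 complement lists with a mean of at least 100 or past the threshold, and the 5 genes most like C1qa, C1s1 and C3. The lists also held markers of cell types. Members and lists were chosen with earlier results of these data known. Alternatives were edgeR 4.0.16 and DESeq2 1.42.0 on recovered reads, other pseudocounts, filters and scalings, array weights, leaving out each library, and, added after the shared sequence was seen, reads summed with the near copy. Litters were matched per the methods but cannot be read from the columns, and p-values measure the spread between mice. A gene of the regulator list is not reported here.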

Additional observations from a re-analysis of the deposited data

How the results depend on the processing

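No paired analysis was possible because the column headers carry no replicate number and so no replicate block could be fitted. In KO-TRAMP against WT-TRAMP at 30 weeks the count of complement genes past the threshold was 4, and it became 9 by DESeq2, 9 with array weights, 2 by edgeR and 2 with reads summed over near copies, where C4b and C1s1 were no longer past it. Leaving out a library moved it between 0 (without library 10, 11, 12 or 18) and 9 (without library 16). In the same comparison 36 genes passed in all, against 805 by DESeq2, 15 by edgeR and 10748 with array weights, and 0 to 3064 with a library left out, the highest without library 16. In A537T-TRAMP at 30 weeks the count of complement genes was 0, and it became 1 (C3) by DESeq2 and 7 with array weights, and ranged from 0 to 1 with a library left out. Over all genes it was 0, against 165 by DESeq2 and 3388 with array weights, and 0 to 145 with a library left out, the highest without library 11. Array weights gave libraries unequal weight from 6 values, and the size of the counts they returned was not tested further. At 10 weeks no complement gene passed under any of these settings. Over all genes, 2 passed in KO-TRAMP, against 81 by DESeq2, 0 by edgeR, 0 at a minimum mean of 50 and 1 to 9 with a library left out. For A537T-TRAMP 1 passed, against 148 by DESeq2, 4 with array weights, 0 by edgeR, 0 at a minimum mean of 50, 0 with a pseudocount of 0.5 and 0 to 65 with a library left out, the highest without library 4.

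Signs changed at 10 weeks. In KO-TRAMP, with a library left out, C4b ranged from -0.56 to 0.037, C1qa from -0.15 to 0.12, C1qb from -0.070 to 0.25, Cfb from -0.67 to 0.049 and Serping1 from -0.071 to 0.29. The change of C1qa was 0.045 by reads per library total, and that of Serping1 was -0.056 with array weights. In A537T-TRAMP, with a library left out, C4b ranged from -0.77 to 0.11, C1qc from -0.27 to 0.23 and Serping1 from -0.31 to 0.15. C1qc was -0.20 with array weights and -0.022 by reads per library total, and C1ra was 0.18 with reads summed over near copies. The causes were not tested. At 30 weeks the fold changes of all 9 genes were positive in both lines under all of these settings. Cfb had 11 to 399 reads per library, and each group held 3 mice.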
